A study of Mus musculus with 4 samples.

Results

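The genes described here are 10 that mark intestinal epithelium and are used to read intestinal metaplasia of the stomach: Cdx1, Cdx2, Vil1, Cdh17, Fabp1, Fabp2, Muc2, Tff3, Guca2a and Guca2b. They were chosen by name. Every gene probe whose RefSeq accession maps to one of them was taken, which gave 11 probes for 9 of the 10 genes, out of 41174 probes for 32970 genes and unnamed transcripts. No probe accession mapped to Muc2, and its level was not analysed here. Both sorted fractions came from gastric tumours of K19-Wnt1/C2mE mice aged 30 weeks, whose glandular stomach epithelium carries Wnt1, Ptgs2 and Ptges transgenes under the keratin 19 promoter. All samples carry these transgenes, and no normal stomach is compared. Lineage-negative CD44+ cells (2 arrays) were set against lineage-negative CD44- cells (2 arrays). All samples share a digestion of 3 h, per the labels. CD44 is the hyaluronan receptor used for the sort. The labels do not say whether the replicates came from separate or pooled animals. The spread behind each p-value is that between these arrays and may be technical.

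Intestinal identity rests on the caudal-type homeobox factors Cdx1 and Cdx2, which are present in normal intestinal epithelium and absent from normal glandular stomach. Forced expression of Cdx2 in the mouse stomach is known to produce intestinal metaplasia. Downstream genes fall into absorptive products (the brush border protein villin, the fatty acid binding proteins), goblet cell products (the mucin Muc2 and the trefoil peptide Tff3) and the guanylin peptides, which act on the receptor guanylate cyclase C. Some of these genes are also transcribed outside the intestine.

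The 4 upstream stretches printed next belong to the 2 fatty acid binding proteins and the 2 guanylins, pairs of related genes that can be set side by side. The pairs were picked after their levels were seen. No difference within a pair, and no link between these letters and the levels, was tested. Each is the 250 bases before the RefSeq transcription start (GRCm38.p6), 5′ to 3′ in the direction of the gene. Capitals mark matches, on either strand, to the letters searched. These were TTTATG for a site of the CDX factors, TATAAA for the TATA box, AGATAA for a site of the GATA factors, GTTAAT for one side of an HNF1 site and CAAAGTCCA for an HNF4 site. The TATA letters read on the other strand were not counted for CDX.
Fabp1 (chr6:71199629-71199878, plus strand): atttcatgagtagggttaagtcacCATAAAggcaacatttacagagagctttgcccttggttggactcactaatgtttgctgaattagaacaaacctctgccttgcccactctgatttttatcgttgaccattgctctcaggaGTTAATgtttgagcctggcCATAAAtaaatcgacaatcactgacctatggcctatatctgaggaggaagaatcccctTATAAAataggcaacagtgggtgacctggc
Fabp2 (chr3:122894822-122895071, plus strand): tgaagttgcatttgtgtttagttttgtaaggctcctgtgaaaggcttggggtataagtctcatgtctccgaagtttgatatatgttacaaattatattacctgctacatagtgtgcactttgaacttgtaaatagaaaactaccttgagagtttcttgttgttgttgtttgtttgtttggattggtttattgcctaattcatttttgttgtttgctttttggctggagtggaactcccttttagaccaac
Guca2a (chr4:119637482-119637731, plus strand): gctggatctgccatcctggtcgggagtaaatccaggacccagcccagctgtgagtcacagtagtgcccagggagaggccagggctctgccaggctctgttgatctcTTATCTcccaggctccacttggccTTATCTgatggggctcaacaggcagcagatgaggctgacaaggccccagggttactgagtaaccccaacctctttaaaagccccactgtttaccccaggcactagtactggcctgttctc
Guca2b (chr4:119658946-119659195, minus strand): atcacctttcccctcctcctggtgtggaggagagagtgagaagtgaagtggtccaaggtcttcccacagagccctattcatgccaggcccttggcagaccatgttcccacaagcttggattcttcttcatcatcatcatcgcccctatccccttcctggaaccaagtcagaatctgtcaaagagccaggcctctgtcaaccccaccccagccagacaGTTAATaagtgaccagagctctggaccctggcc
The Fabp1 stretch held 2 CDX matches, both on the reverse strand as CATAAA, with 1 HNF1 half-site and 1 TATA box. The Guca2a stretch held 2 GATA matches as TTATCT, and the Guca2b stretch held 1 HNF1 half-site. The Fabp2 stretch held none of the 5. Of 32851 upstream stretches of this length in the same table, 10.76% held the CDX letters, 12.37% the TATA letters, 9.99% the GATA letters, 6.43% the HNF1 half-site and 0.38% the HNF4 letters. None of the 4 stretches held the HNF4 letters. These are matches of letters, and no binding was measured. Fabp1 lies on chromosome 6, Fabp2 on chromosome 3, and the guanylin genes lie near each other on chromosome 4.

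The arrays were 1-colour, so each holds 1 sample, and with 2 arrays per fraction the precision is low. The first CD44+ array was the dimmest, with a 75th percentile of 257 intensity units, against 428 to 575 on the other 3 arrays. Spots well above background, as flagged by the scanner software, made up 53.1% to 69.6% of gene spots, and no spot was saturated. Levels are given on a log2 scale relative to each array's 75th percentile, and the difference of a gene compares 1 probe with itself across arrays. The medians and sums of gene lists combine different probes, and the sums rest mostly on the bright ones. The sort marker Cd44 was at 6.23 and 6.45 on the CD44+ arrays, against 4.19 and 4.98 on the CD44- arrays (difference 1.76 ± 0.49, SE, limma's adjusted p = 0.178). In bulk RNA of sorted cells, fewer cells of a type and less RNA per cell cannot be told apart.

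The master regulators gave no measurable signal. The Cdx1 probe gave 4.82 and 2.90 intensity units on the CD44+ arrays, against 3.49 and 2.88 on the CD44- arrays, and was not well above background on any of the 4. The Cdx2 probe gave 4.85 and 2.87 units on the CD44+ arrays, against 2.77 and 2.86 on the CD44- arrays, also never well above background. On each array the lowest signal flagged as well above background was 22.9 and 14.1 units for CD44+ cells and 13.4 and 14.1 units for CD44- cells, so both homeobox probes lay under that limit throughout. The same held for Cdh17, the liver-intestine cadherin of enterocyte side membranes, at 4.60 and 3.39 units in CD44+ cells and 4.08 and 3.18 units in CD44- cells. A transcript under this limit may still be present, and no fold is given for these 3 genes. Each rests on 1 probe.

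The other 6 genes with a probe were well above background on all 4 arrays, so none of them entered the test through 1 group alone. With limma, none had a Benjamini-Hochberg adjusted p under 0.05 over the 21045 genes tested, where 0.527% did (0.0333% higher and 0.494% lower in CD44+ cells). At an unadjusted p under 0.05 there was 1 of 6, Fabp1, against 10.8% of all genes. The fractions did not overlap for 3 of 6, Vil1 (higher in CD44+ cells) and Fabp1 and Guca2b (lower), against 39.6% of all genes (22.7% higher and 16.9% lower). Of the 6, 2 had a higher mean in CD44+ cells and 4 a lower one, with a median log2 difference of -0.49, where the median of all genes tested was 0.18. With so few members these counts are a description.

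**Figure D1:**
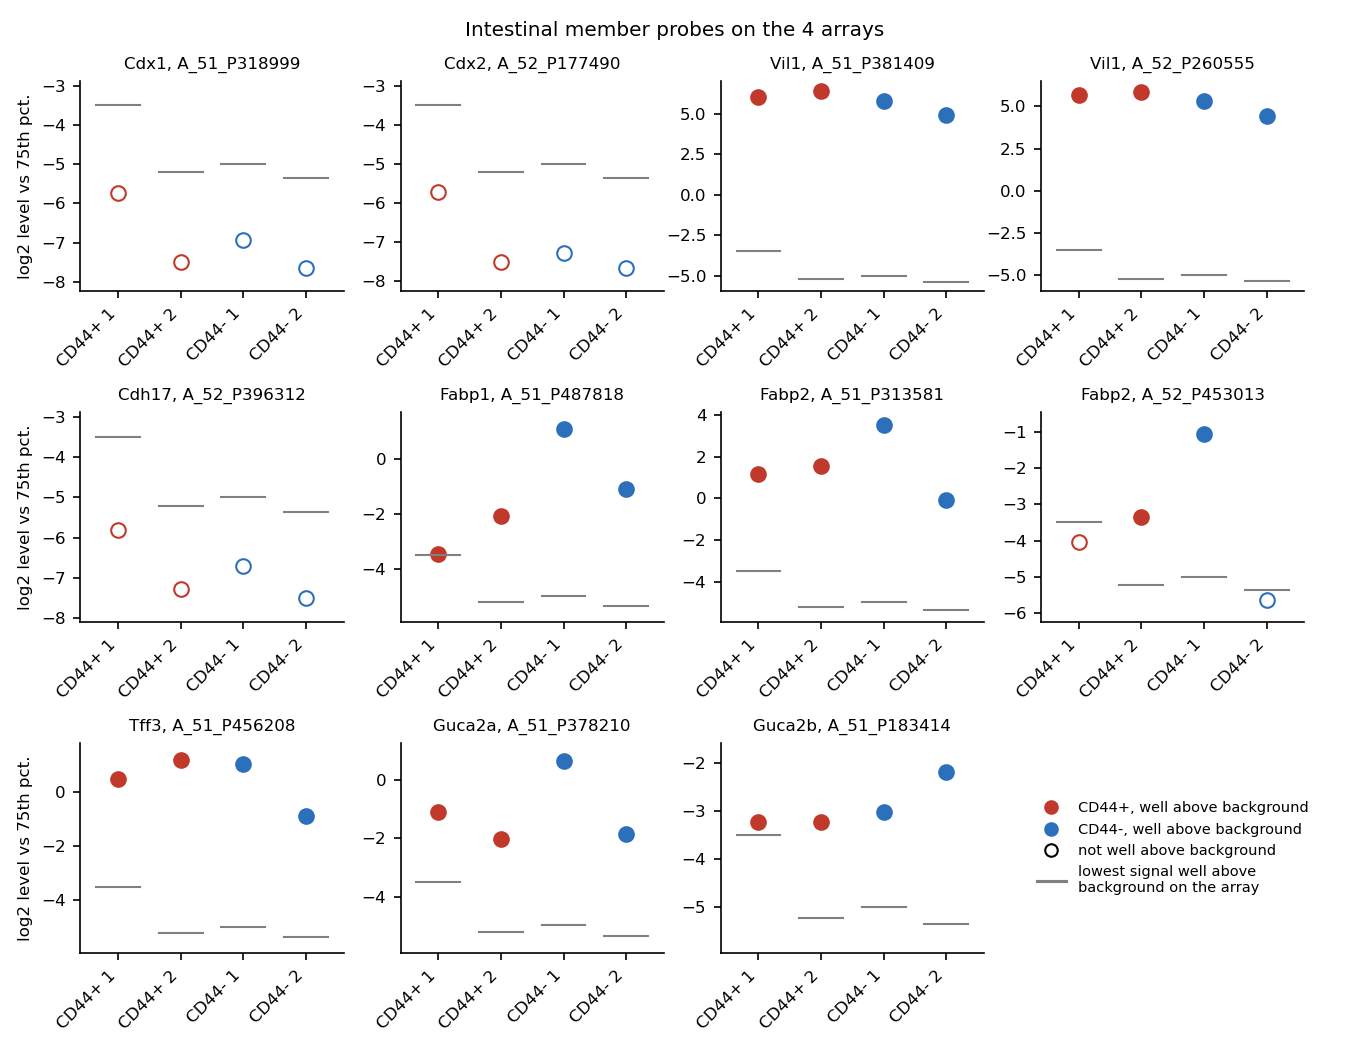
Log2 level of each of the 11 probes relative to the array's 75th percentile (y axis) on the 4 arrays (x axis), with CD44+ arrays in red, CD44- arrays in blue, open circles where the spot was not well above background, and grey bars at the lowest signal well above background on that array. Cdx1, Cdx2 and Cdh17 lie under the bar on every array, and Fabp1, both Fabp2 probes and Guca2a are highest on the first CD44- array.

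Villin (Vil1), the protein that bundles and severs actin in the microvilli of brush borders, was bright on every array by 2 probes with similar differences. The brighter probe lay at 6.03 and 6.37 in CD44+ cells, against 5.80 and 4.88 in CD44- cells. The fractions did not overlap, yet the lower CD44+ array and the higher CD44- array were only narrowly apart. The log2 difference was 0.86 ± 0.51 (SE, n = 2 arrays per group), 1.82-fold higher in CD44+ cells with a 95% interval from 0.816-fold to 4.05-fold, and limma's adjusted p of 0.682 did not pass. The second probe gave 5.68 and 5.88 in CD44+ cells, against 5.32 and 4.45 in CD44- cells, a difference of 0.89 ± 0.50. The difference of the brighter probe was 1.32 without the first CD44- array and 0.40 without the second.

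Vil1 had its lowest level on the same array as general epithelial genes. All 6 epithelial genes tested (Epcam, Cdh1, Krt8, Krt18, Krt19 and Cldn7) were lowest on the second CD44- array, which held the lowest level of 46.2% of all genes. Their median log2 difference was 0.75, close to the 0.86 of Vil1. Their median level was 7.71 and 7.49 on the CD44+ arrays, against 7.10 and 5.92 on the CD44- arrays, and their summed level in log2 was 11.0 and 10.5 against 10.9 and 9.60. With each array scaled to the median of these 6 genes, a scaling chosen after seeing the data, the Vil1 difference was -0.23 ± 0.85 and the fractions overlapped. That scaling moved the difference of every gene by the same -1.09, and so the median of all genes to -0.91. The distance of Vil1 above that median could not change, so neither it nor the new sign is a test. The shift is the group difference of the 6-gene median levels, which was larger than 0.75, the median of the 6 differences. Vil1 passed with neither scaling, and the part of epithelial content in its difference was not tested.

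Among the fatty acid binding proteins, which carry fatty acids in the cytosol, Fabp1 showed the widest gap between fractions of all members. Fabp1, the liver-type protein of hepatocytes and proximal intestine, lay at -3.46 and -2.10 in CD44+ cells, against 1.08 and -1.09 in CD44- cells. Both CD44+ arrays were below both CD44- arrays. The log2 difference was -2.77 ± 0.76 (SE, n = 2 arrays per group), 6.82-fold lower in CD44+ cells with a 95% interval from 2.05-fold to 22.8-fold. The unadjusted p of limma's test was 0.00590 and the adjusted p was 0.174, above the threshold. The signal on the first CD44+ array, 23.4 units, was only just above the lowest flagged signal of 22.9 units there.

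The call for Fabp1 depended on the setting. It passed in 7 of 17 alternatives, with adjusted p = 0.0309 by array median scaling, 0.0284 in the authors' value table, and 0.0231 with normexp background correction, which reduced the difference to -1.74. Epithelial scaling moved the difference of every gene by -1.09, that of Fabp1 to -3.86, so genes already lower in CD44+ cells moved away from 0. Fabp1 also passed with that scaling and with the replicate block, where, as with normexp, limma applied 1 spread to all genes. It passed as well without the second CD44+ array (-3.45, adjusted p = 0.00840) and without the second CD44- array (-3.86, adjusted p = 4.29e-05). It did not pass without the first CD44+ array (-2.09, adjusted p = 0.295) or without the first CD44- array (-1.68, adjusted p = 0.144). Over the 17 alternatives adjusted p ranged from 3.52e-06 to 0.693 and the difference kept its sign in each.

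Fabp2, the intestinal-type protein, had no such separation. Its brighter probe lay at 1.19 and 1.56 in CD44+ cells, against 3.52 and -0.06 in CD44- cells. The first CD44- array was the highest of the 4 and the second was the lowest, so the fractions overlapped completely. The difference was -0.36 ± 0.98 (SE, n = 2 arrays per group), with a 95% interval from -2.58 to 1.87 and an adjusted p of 0.916 by limma. It reversed to 1.43 without the first CD44- array and was -2.15 without the second. The dimmer Fabp2 probe repeated the order of the 4 arrays, at -4.05 and -3.36 in CD44+ cells, against -1.08 and -5.65 in CD44- cells, but was well above background only on the second CD44+ and the first CD44- array.

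**Figure D2:**
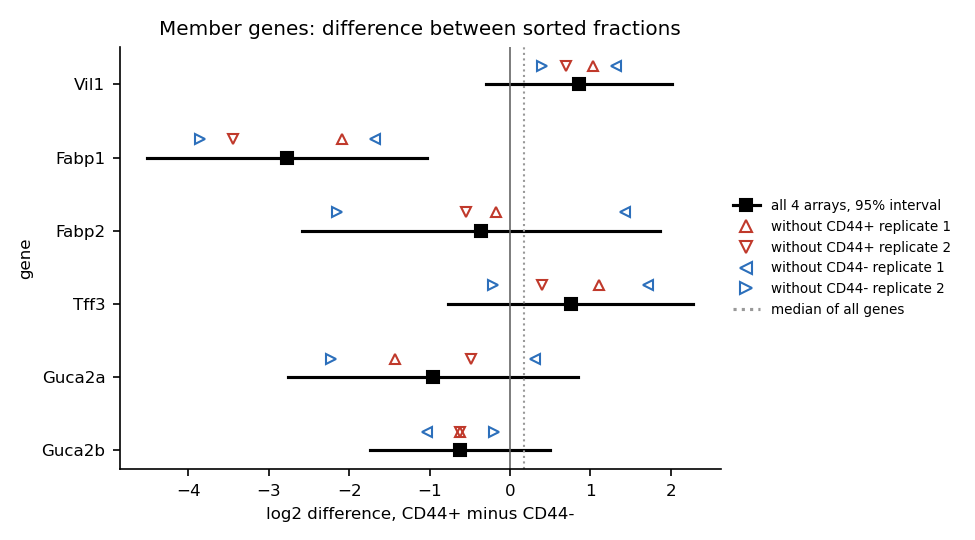
Log2 difference, CD44+ minus CD44-, of the 6 member genes well above background (squares, all 4 arrays, with 95% intervals), with the estimates that leave out 1 array as open triangles and the median of all genes (0.18) as a dotted line. Only the Fabp1 interval, from -4.51 to -1.03, lies clear of 0. Leaving out either CD44- array moves Fabp1, Fabp2, Tff3 and Guca2a across a wide range, Fabp1 from -3.86 to -1.68.

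Goblet cell products were represented by Tff3 alone. Tff3, a trefoil peptide secreted with mucus that protects and repairs the epithelium, lay at 0.49 and 1.20 in CD44+ cells, against 1.05 and -0.88 in CD44- cells. The first CD44- array fell between the 2 CD44+ arrays and the second CD44- array was lowest. The difference was 0.76 ± 0.67 (SE, n = 2 arrays per group), with a 95% interval from -0.77 to 2.28 and an adjusted p of 0.787 by limma. It was 1.72 without the first CD44- array and -0.21 without the second, and -0.33 when arrays were scaled to the 6 epithelial genes.

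The 2 guanylins behaved differently on the CD44- arrays. Guca2a, guanylin, lay at -1.09 and -2.02 in CD44+ cells, against 0.66 and -1.86 in CD44- cells. The first CD44- array was highest, and the second lay within the range of the CD44+ arrays. The difference was -0.96 ± 0.79 (SE, n = 2 arrays per group), with a 95% interval from -2.76 to 0.84 and an adjusted p of 0.781 by limma, and it was 0.31 without the first CD44- array and -2.22 without the second.

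Guca2b, uroguanylin, lay at -3.23 and -3.23 in CD44+ cells, against -3.03 and -2.20 in CD44- cells. Both CD44- arrays were above both CD44+ arrays, with the second CD44- array highest, the opposite order to Guca2a. The difference was -0.62 ± 0.49 (SE, n = 2 arrays per group), 1.53-fold lower in CD44+ cells, with a 95% interval from -1.74 to 0.50 and an adjusted p of 0.777 by limma. Without the first CD44- array the difference was -1.03 and without the second it was -0.20. On the first CD44+ array its signal of 27.4 units was close to the lowest flagged signal. The receptor for both peptides, Gucy2c, singled out for that role after its values were seen, lay at -1.53 and -2.19 in CD44+ cells, against -1.64 and -2.72 in CD44- cells, and did not pass (difference 0.32 ± 0.54, adjusted p = 0.864).

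The 2 CD44- arrays differed over 2-fold for 4 of the 6 genes, each higher on the first. Of all genes tested, at most 12.4% did so, the share with a gap at least as large as that of Vil1, 1.90-fold. Fabp1, Fabp2 and Guca2a were each highest on the first CD44- array, where 16.9% of all genes had their highest level. On that array Fabp2 had 12.0-fold, Guca2a 5.77-fold and Fabp1 4.51-fold the level of the second CD44- array. Over all genes tested, 5.8% were highest on the first CD44- array and over 2-fold above the second. Tff3, highest on the second CD44+ array, is not of this kind. A gap in this direction at least as large as that of Fabp2 was seen for 0.181% of genes, of Guca2a for 0.751%, of Fabp1 for 1.26%, of Tff3 for 1.81% and of Vil1 for 12.4%. Guca2b had the opposite gap, at 0.564 of the level on the second array. The pattern was noticed in these data and is given as a description. On the CD44+ side the second array had 2.56-fold the Fabp1 level of the first.

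**Figure D3:**
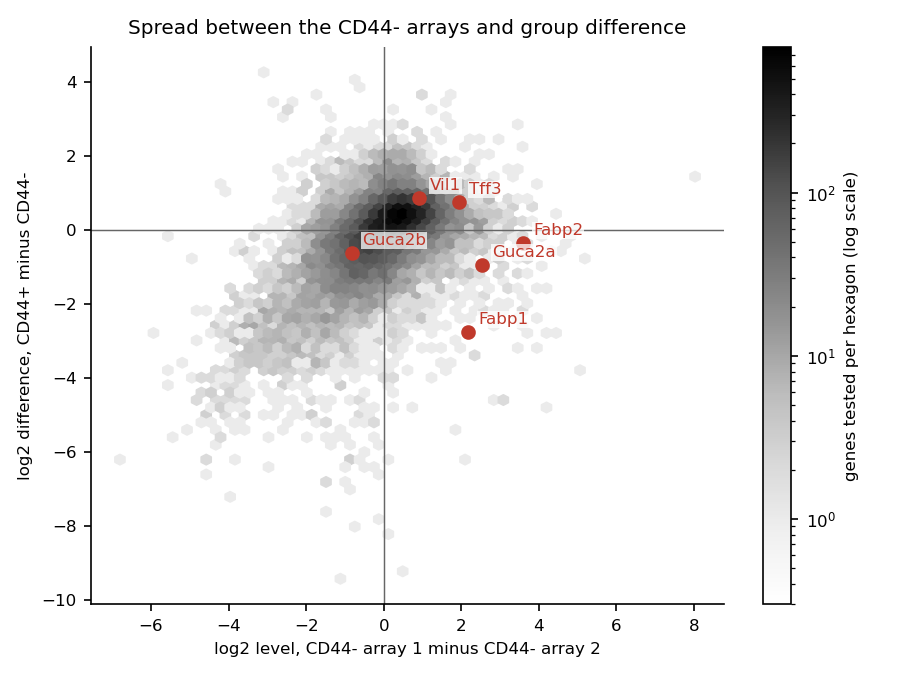
Each hexagon counts genes tested (grey, log scale) by the log2 level on the first minus the second CD44- array (x axis) and by the log2 difference CD44+ minus CD44- (y axis), with the 6 member genes as red points. Fabp1, Fabp2, Guca2a and Tff3 lie at gaps of 2.17, 3.58, 2.53 and 1.93 at the right edge of the cloud, and Guca2b at -0.83 lies left of 0.

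Other genes of the intestinal programme were read from 5 lists of transcription factors, enterocyte digestion and transport genes, brush border genes, goblet genes and Paneth or antimicrobial genes. Leaving out the members, 72 of 77 listed genes had a probe and 57 were tested. None of the 57 passed limma's test over all genes (smallest adjusted p = 0.0798), where 0.527% of all genes passed. At an unadjusted p under 0.05 there were 10 of the 57, against 10.8% of all genes. Of the 57, 37 had a higher mean in CD44+ cells and 20 a lower one, with a median log2 difference of 0.29. Over all genes tested, 61.7% had a higher mean in CD44+ cells and the median was 0.18, against which the counts and medians of the lists are to be read. The fractions did not overlap for 36.8% of them, against 39.6% of all genes. Of the 57, 15 (26.3%) were highest on the first CD44- array, against 16.9% of all genes.

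Of the 15 genes with a probe that were not tested, 13 were not well above background on any array. They included, picked for being dim, Isx, a homeobox factor of the intestine, Atoh1, the factor that specifies secretory cells, the sodium-coupled amino acid carrier Slc6a19, the peptide carrier Slc15a1, the chloride-bicarbonate exchanger Slc26a3, the triglyceride transfer protein Mttp, the apolipoprotein Apoc3 and the ileal bile acid binding protein Fabp6. Cdx1, Cdx2 and Cdh17 were likewise not well above background on any array. Over all genes 21045 of 32970 were tested, against 57 of these 72 and 6 of 9 members. The share of all genes dim on every array was not counted.

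The transcription factor list had 12 genes tested, 11 above 0 and 1 below, with a median of 0.24, near the 0.18 of all genes. Spdef, which drives goblet and mucous secretory maturation, lay at 3.52 and 3.91 in CD44+ cells, against 2.70 and 2.85 in CD44- cells (difference 0.94 ± 0.46, limma's adjusted p = 0.552). Hnf4a, a nuclear receptor of gut and liver epithelium, differed by 0.96 ± 0.53 and Gata5 by 0.76 ± 0.51. Prdm1, a repressor known for the immature mouse intestine and for plasma cells, was the exception at -1.44 ± 0.72, with the second CD44- array 0.25 and the first -2.08. None of these 4 passed.

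The enterocyte list had 20 genes tested, 9 above 0 and 11 below, with a median of -0.09. The membrane carbonic anhydrase Car4 was at least 2.29-fold lower in CD44+ cells by the group means (adjusted p = 0.0798 by limma). Neither CD44+ array measured it above background, so it entered the test through the CD44- arrays alone. Its measured means were -6.01 in CD44+ cells and -3.15 in CD44- cells. The apolipoprotein Apoa1 was at least 1.64-fold lower by the group means, and it also entered through the CD44- arrays alone. On the first CD44- array Car4 (-3.81) and Apoa1 (-4.58) lay under the lowest flagged level of the first CD44+ array (-3.49). The 2 limits thus do not hold array by array. The aminopeptidase Anpep differed by -1.80 ± 0.70, with the second CD44- array highest for it and for Apoa1. Car4, Apoa1 and Anpep had their highest level on the second CD44- array, unlike Fabp1 and Fabp2.

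The retinol binding protein Rbp2 and the intestinal alkaline phosphatase Alpi, singled out after their values were seen, had the same order on the CD44- arrays as the fatty acid binding proteins. Rbp2 lay at -2.52 and -2.86 in CD44+ cells, against -0.56 and -3.45 in CD44- cells. Alpi lay at -2.13 and -2.49 in CD44+ cells, against -0.73 and -3.92 in CD44- cells. For both genes the first CD44- array was highest and the second lowest, so the fractions overlapped.

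The brush border list, which includes Vil1, had 11 genes tested, 8 above 0 and 3 below, with a median of 0.58. The actin nucleator Cobl lay at -1.02 and -0.86 in CD44+ cells, against -3.79 and -2.49 in CD44- cells, a difference of 2.20 ± 0.55 (adjusted p = 0.138 by limma). The actin capping protein Eps8 lay at 1.18 and 1.07 in CD44+ cells, against 0.03 and -0.70 in CD44- cells, a difference of 1.46 ± 0.48 (adjusted p = 0.266 by limma). Espin (Espn), another actin bundling protein, differed the other way, by -1.09 ± 0.52, and was not well above background on the first CD44+ array. The fractions did not overlap for these 3 genes, which were named for their small adjusted p, nor for 39.6% of all genes. None of the 3 passed.

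The goblet list, which includes Tff3, had 10 genes tested, 7 above 0 and 3 below, with a median of 0.45. Agr2, a folding factor of mucin secreting cells in stomach and intestine, lay at 8.83 and 8.92 in CD44+ cells, against 7.91 and 7.23 in CD44- cells (difference 1.30 ± 0.48, adjusted p = 0.327 by limma). The membrane mucins Muc13 and Muc4 differed by 0.91 ± 0.46 and 0.90 ± 0.54, and the exocytosis factor Sytl2 by -0.82 ± 0.58. Clca1, a secreted goblet cell protein singled out after its values were seen, lay at 4.76 and 4.62 in CD44+ cells, against 7.23 and 2.36 in CD44- cells. As for Fabp2, the first CD44- array was highest and the second lowest.

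Of the Paneth and antimicrobial list 6 genes were tested, 4 above 0 and 2 below, with a median of 0.98, which was 0.39 without the second CD44+ array, 0.53 without the first CD44- array and 0.23 without the second. The metalloproteinase Mmp7 differed by 1.34 ± 0.50, and the lectins Reg3g and Reg3b by 1.18 ± 0.63 and 1.12 ± 0.67. The lysozyme Lyz2, a myeloid gene as well, differed by -2.28 ± 0.86. None passed.

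Markers of other cell types differed between the arrays, and their part in the results above was not tested. The surface mucous list had 5 of its 7 genes highest on the first CD44- array, with median levels of 3.28 and 3.00 on the CD44+ arrays, against 5.29 and 2.65 on the CD44- arrays. Its summed level in log2 was 11.4 and 10.3 in CD44+ cells, against 10.8 and 9.96 in CD44- cells. By their means, 4 of the 7 genes were higher in CD44+ cells and 3 lower, with a median log2 difference of 0.0083. The bright genes Tff1 and Gkn2 differed by 0.58 ± 0.54 and 0.47 ± 0.56. Among the 3 lower genes the gastric mucin Muc5ac, named after its values were seen, lay at 0.19 and -1.10 in CD44+ cells. Its levels in CD44- cells were 5.71 and 2.65. On the second CD44- array the fibroblast and endothelial lists were highest. Their median levels were -0.14 and 2.08 for fibroblast genes in CD44+ cells, against 2.52 and 5.37 in CD44- cells. For endothelial genes they were -3.32 and -2.22 in CD44+ cells, against -0.29 and 3.86 in CD44- cells. Comparing the 2 CD44- arrays, all 7 fibroblast and all 5 endothelial genes tested were over 2-fold higher on the second. At most 12.8% of all genes were, the share with a gap in this direction at least as large as that of Guca2b. In log2, the summed fibroblast levels ranged from 2.88 to 5.31 in CD44+ cells, against 6.01 to 8.69 in CD44- cells. The summed endothelial levels ranged from -1.15 to 0.077 in CD44+ cells, against 1.76 to 5.87 in CD44- cells.

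Of 10 enteroendocrine genes, 7 fell in CD44+ cells by limma's test, where 0.494% of all genes did. The other 3 had lower means there. Of the 7, Ghrl and Cck, named for being dim, were not well above background on the first CD44+ array. They entered the test through the CD44- arrays alone. The median levels were -2.49 and -3.49 on the CD44+ arrays, against 2.38 and 2.67 on the CD44- arrays, though 5 of the 10 genes were over 2-fold higher on the second CD44- array than on the first. Of 6 squamous genes, 2 fell in CD44+ cells, where 0.494% of all genes did, and the other 4 had lower means there. Of these 2, Krtdap, named for being dim on both CD44+ arrays, entered the test through the CD44- arrays alone. The squamous median levels were -0.09 and -2.07 on the CD44+ arrays, against 3.13 and 3.31 on the CD44- arrays. The parietal and chief lists each had 3 of 4 genes below 0, with none passing and 3 of 4 over 2-fold higher on the second CD44- array than on the first. At most 12.8% of all genes were over 2-fold higher on the second CD44- array.

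The mucous neck list differed the other way. All 4 genes tested had higher means in CD44+ cells, where 61.7% of all genes did. The fractions did not overlap for 3 of them, against 22.7% of all genes not overlapping and higher in CD44+ cells. The median log2 difference was 2.42, larger than that of any intestinal list, and none passed. The median levels were 6.81 and 7.08 on the CD44+ arrays, against 3.92 and 5.08 on the CD44- arrays. Gkn3, a gastrokine of mucous neck cells in the mouse, lay at 9.04 and 9.30 in CD44+ cells, against 6.44 and 7.16 in CD44- cells (difference 2.37 ± 0.49, limma's adjusted p = 0.0882). Spdef and Agr2, which secretory cells of the stomach also express, were higher on the same arrays, and the part of mucous neck cells in their differences was not tested. The liver shares Fabp1 with the intestine. Of the liver and pancreas markers, 3 of 5 genes with a probe did not pass the filter. These 3, named for that, were albumin (Alb), Cpa1 and Pnlip. Alb was well above background on 2 arrays, though not on both of either fraction, Cpa1 on 1 and Pnlip on 0. The transthyretin gene Ttr differed by 0.40 ± 0.55. The elastase Cela1 was bright, at 2.23 and 3.31 in CD44+ cells, against 1.53 and 1.26 in CD44- cells, and the fractions did not overlap (difference 1.38 ± 0.52, limma's adjusted p = 0.351). The gastric genes Tff1, Tff2 and Gkn2 and the keratin Krt8 were well above background on all 4 arrays. They were named as bright genes of their lists, so this is no test of the labelled tissue.

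**Figure D4:**
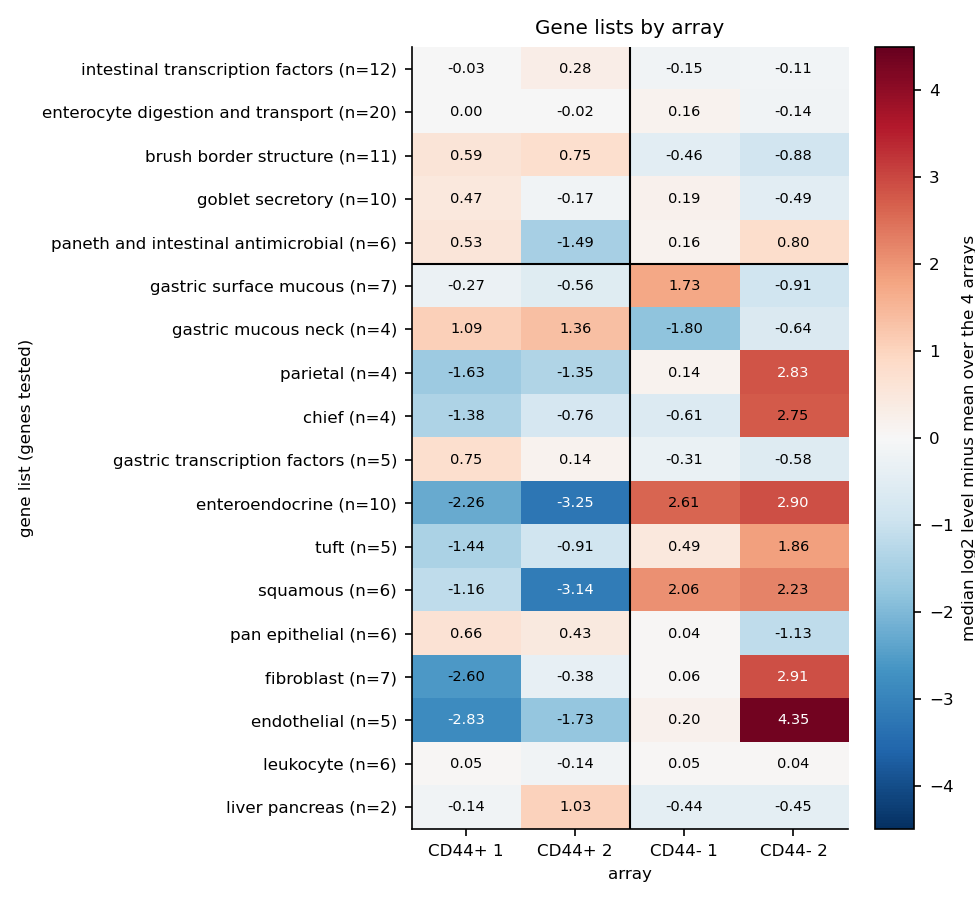
Median log2 level of each gene list on the 4 arrays, minus its mean over the 4 arrays (colour and printed value), with intestinal lists above the horizontal line, other cell types under it, and the number of genes tested in brackets. The intestinal lists stay within 1.49 of their mean, the widest being the Paneth list. The gastric transcription factor, epithelial, leukocyte, and liver and pancreas lists stay within that range too. The surface mucous list is 1.73 above on the first CD44- array and the endothelial list 4.35 above on the second. The brush border and goblet lists include Vil1 and Tff3.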

How the data were processed

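RNA of 4 sorted samples from mouse gastric tumours was measured, 2 of lineage-negative CD44+ and 2 of CD44- cells. Groups and replicate numbers came from the sample titles. Per the labels' protocols, amplification started from 25 ng of total RNA and Cy3 labelling from 0.2 ug of its product, which can distort ratios between transcripts and lose rare ones.

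The authors deposited 1 scanner table per array, written by Agilent Feature Extraction 10.1.1.1 per the file headers, whereas the submitters' processing notes name version 9.5. The processed signal is a background-subtracted intensity, not scaled between arrays, per the file headers. The flags are the software's own 0 or 1 scores. All 4 arrays lay on 1 slide and shared 1 scan, so no slide block could be made. The authors' value table holds a linear ratio to each probe's median over the arrays, with low values held at 0.01, as found by setting it against the scanner values. Its steps are not given in the sources used here.

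Control spots and outlier spots were left out, log2 values of spots of the same probe averaged, and each array's 75th percentile subtracted. Probes were named by RefSeq accession (24375 of 41174 probes). A probe entered the test when both arrays of either group flagged it well above background, and a gene was represented by its brightest such probe, giving 21045 genes. Groups were compared with limma 3.58.1 in R 4.3.3, without covariates, with 2 residual and 6.61 prior degrees of freedom and Benjamini-Hochberg adjustment over all genes. The fit was tested on simulated data. A lower limit sets the bright group's mean against, per dim array, whichever is higher of the probe's own signal and the dimmest one flagged well above background. The members and lists were chosen with earlier results of these data known. Genes named were all members, Cd44, the 4 of each intestinal list with the smallest adjusted p, up to 2 bright genes of each other list, and those said to be singled out. One gene of the enterocyte list that this rule names is not reported here.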

Additional observations from a re-analysis of the deposited data

How the results depend on the processing

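Alternatives were array median or quantile scaling, no scaling, normexp background correction, the authors' value table, other filters and probe choices, a mean-variance trend, the replicate block and leaving out each array, plus scaling to 6 epithelial genes, chosen after seeing the data. Where a fit left a fraction with 1 array, that array was assumed to vary like the others. The number of genes that passed was 111 (7 higher, 104 lower). It was 733 (121 higher, 612 lower) with array median scaling, 753 in the authors' value table and 532 with normexp. With no filter on dim probes it was 27, and with quantile normalization 6. With epithelial scaling, which moved every difference by -1.09, it was 1643 (7 higher, 1636 lower). With no scaling between arrays it was 0 by limma, where 1210 had an unadjusted p under 0.05. With 1 array left out it ranged from 410 to 1577. Of the members, 1, Fabp1, passed with array median scaling, normexp, the authors' value table and epithelial scaling, and 0 to 1 with 1 array left out. With 1 array left out Vil1 ranged from 0.40 to 1.32 and Fabp1 from -3.86 to -1.68. Fabp2 ranged from -2.15 to 1.43 and Guca2a from -2.22 to 0.31, both reversed without the first CD44- array. Tff3 ranged from -0.21 to 1.72 and reversed without the second. With epithelial scaling Vil1 reversed to -0.23 and Tff3 to -0.33. Guca2b kept its sign in every alternative. The causes were not tested.

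Replicate numbers are shared between the fractions, but nothing in the labels pairs them. Deviations of same-numbered arrays from their group means correlated at 0.347 across genes. With the replicate block 1810 genes and 1 member, Fabp1, passed, on 1 residual degree of freedom and with 1 spread for all genes.

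List medians moved by more than the spread between arrays as follows. The transcription factor median was -0.20 without scaling and -0.85 with epithelial scaling, and 0.014 to 0.55 with 1 array left out. The enterocyte median was -0.52 without scaling, 0.21 with normexp, 0.48 for genes well above background on all 4 arrays, -1.17 with epithelial scaling, and -0.38 to 0.27 with 1 array left out. The brush border median was 0.25 with quantile normalization, 0.14 without scaling, -0.51 with epithelial scaling, and 0.19 to 0.92 with 1 array left out. The goblet median was -0.64 with epithelial scaling and -0.14 to 0.96 with 1 array left out, and the Paneth median was -0.11 with epithelial scaling. With 1 array left out it was 0.23 to 0.78, within that spread. The median of all genes shifted by -1.09 with epithelial scaling, by -0.44 without scaling and by 0.10 with array median scaling.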
